A study of Arabidopsis thaliana with 6 samples.

Results

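Arginine synthesis and the PII protein that acts on it were followed through 10 genes, chosen by gene identifier out of 33602 in the deposited table and all present in it. They are GLB1, which encodes the PII protein, and 9 genes of enzymes or enzyme subunits that make arginine from glutamate, glutamine and aspartate. The series compared entire seedlings of 1 ecotype of Arabidopsis thaliana, a small crucifer and model plant, labelled Columbia (Col) ecotype. Both groups were 12 days old, carried no transgene or mutation named in the labels, and grew on nitrogen-free mineral salts with 0.5% sucrose in cycles of 16 h light and 8 h dark at 22°C. In 3 libraries the only nitrogen source was 5 mM glutamine (Gln), and in 3 libraries it was 5 mM NH4NO3, so the Gln medium also lacked nitrate and ammonium. An effect of Gln therefore cannot be told apart from that absence. The libraries are bulk RNA from all organs, so fewer cells of a type and less RNA per cell cannot be told apart.

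Plants build arginine mostly in the plastid, by acetylating glutamate, reducing and transaminating it to ornithine, and joining ornithine to carbamoyl phosphate and then to aspartate. Arginine holds much nitrogen per carbon and serves as a store and transport form as well as a building block of protein. The pathway is controlled at N-acetylglutamate kinase, which arginine inhibits and which PII binding releases from that inhibition. In green algae and most land plants PII also binds glutamine through a C-terminal loop, whereas PII proteins of the Brassicaceae, the family of Arabidopsis, have lost that loop's glutamine binding.

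The upstream sequences of 3 of the genes are shown because 2 of them, NAGS1 and CARB, differed most between the nitrogen sources among the 10 genes, and CARA encodes the partner subunit of CARB. Each is the 250 bases before the annotated gene start, from the RefSeq TAIR10.1 genome and annotation, written 5′ to 3′ on the strand of the gene. No other annotated gene lies in these 3 windows. Capitals mark matches on either strand to TATAAA (the TATA core) or TGGGCC (the site II core). CARA holds overlapping matches. The CARB match lies 210 to 205 bases before the gene start, and the CARA match nearest the start lies 80 to 75 bases before it. These are matches of letters, and whether any acts as a TATA box was not tested.
NAGS1, chr2:9749607-9749856, plus strand: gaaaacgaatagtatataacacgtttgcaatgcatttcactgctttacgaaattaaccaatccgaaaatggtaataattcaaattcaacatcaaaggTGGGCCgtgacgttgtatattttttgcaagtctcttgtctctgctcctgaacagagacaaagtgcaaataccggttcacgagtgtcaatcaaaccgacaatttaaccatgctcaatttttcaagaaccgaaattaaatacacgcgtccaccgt
CARB, chr1:10467706-10467955, plus strand: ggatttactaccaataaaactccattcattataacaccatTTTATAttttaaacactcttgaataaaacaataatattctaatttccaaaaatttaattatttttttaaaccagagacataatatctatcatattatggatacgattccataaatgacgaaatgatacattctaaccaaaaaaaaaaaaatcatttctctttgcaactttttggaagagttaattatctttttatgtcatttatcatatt
CARA, chr3:10283936-10284185, minus strand: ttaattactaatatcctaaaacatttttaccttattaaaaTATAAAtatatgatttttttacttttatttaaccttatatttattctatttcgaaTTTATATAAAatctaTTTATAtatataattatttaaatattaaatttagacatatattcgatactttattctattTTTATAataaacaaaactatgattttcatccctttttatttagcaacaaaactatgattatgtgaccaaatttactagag
The NAGS1 window held 38.0% G and C, that of CARB 22.0% and that of CARA 15.6%. TATAAA was found upstream of 3 of the 10 genes (CARA, CARB and OTC) and in 47.3% of 27443 windows of the same length before protein-coding genes. TGGGCC was found upstream of 2 of the 10 (NAGS1 and OTC) and in 13.7% of all windows. CACGTG (the G-box) and AAACCCTAA (the telo-box) were searched on both strands too. Neither was in any of the 10 windows, whereas 6.49% of all windows held CACGTG and 2.61% held AAACCCTAA.

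The libraries held 30269358 to 35421767 implied reads in genes in Gln and 28654470 to 31980696 in NH4NO3. In NH4NO3 replicate 2, 44.9% of genes with 1 to 100 reads had an even read number (95% exact binomial interval 43.7% to 46.1%), against 57.8% to 60.9% in the other 5 libraries, so values without it are also given. Markers of both root and shoot were detected in all 6 libraries and none was at 0. The root marker list, with 9 of 10 genes higher and 1 lower, summed to 155 to 208 RPKM in Gln and 112 to 126 RPKM in NH4NO3. The root genes were uneven. PRP3 averaged 28.5 RPKM in Gln and 9.96 RPKM in NH4NO3, CASP1 37.7 and 27.9 RPKM, and TIP2;3 18.6 and 31.7 RPKM. The shoot list, with 9 of 10 lower and 1 not called, summed to 20254 to 23472 RPKM in Gln and 27071 to 31330 RPKM in NH4NO3. By the same test, described below, 21.4% of all genes tested were called as higher and 19.8% as lower. The part of these organ markers in the results below was not tested.

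Transcripts for PII and for arginine synthesis differed little between seedlings on Gln and on NH4NO3. Of the 10 genes, 1 rose, NAGS1, 2 fell, CARB and ASL, and 7 did not pass the test, with mean RPKM differing by at most 19.9%. Among all 19284 genes tested, 41.2% were called, 21.4% as higher and 19.8% as lower, so 3 of 10 is no more than the background. The test was limma on log2(RPKM + 1), with an adjusted p under 0.05. RPKM is reads per kilobase of gene, scaled to library size, which allows levels to be compared between genes. Each log2 fold change is the Gln mean minus the NH4NO3 mean of log2(RPKM + 1). For the 10 genes the median log2 fold change was -0.11, beside -0.02 over all genes tested. The 3 Gln values lay wholly above the 3 NH4NO3 values for 1 gene and wholly below for 4, and such separation was found in 53.6% of all genes tested, 26.5% above and 27.1% below. After quantile normalization 4 of the 10 were called as lower, with NAGK and OTC added, beside 4429 of all 19284 genes. That setting called 42.1% of all genes and moved their median log2 fold change to -0.053. Without NH4NO3 replicate 2, none of the 10 was called as higher and 1, CARB, as lower, where 30.6% of all genes were called.

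**Figure D1:**
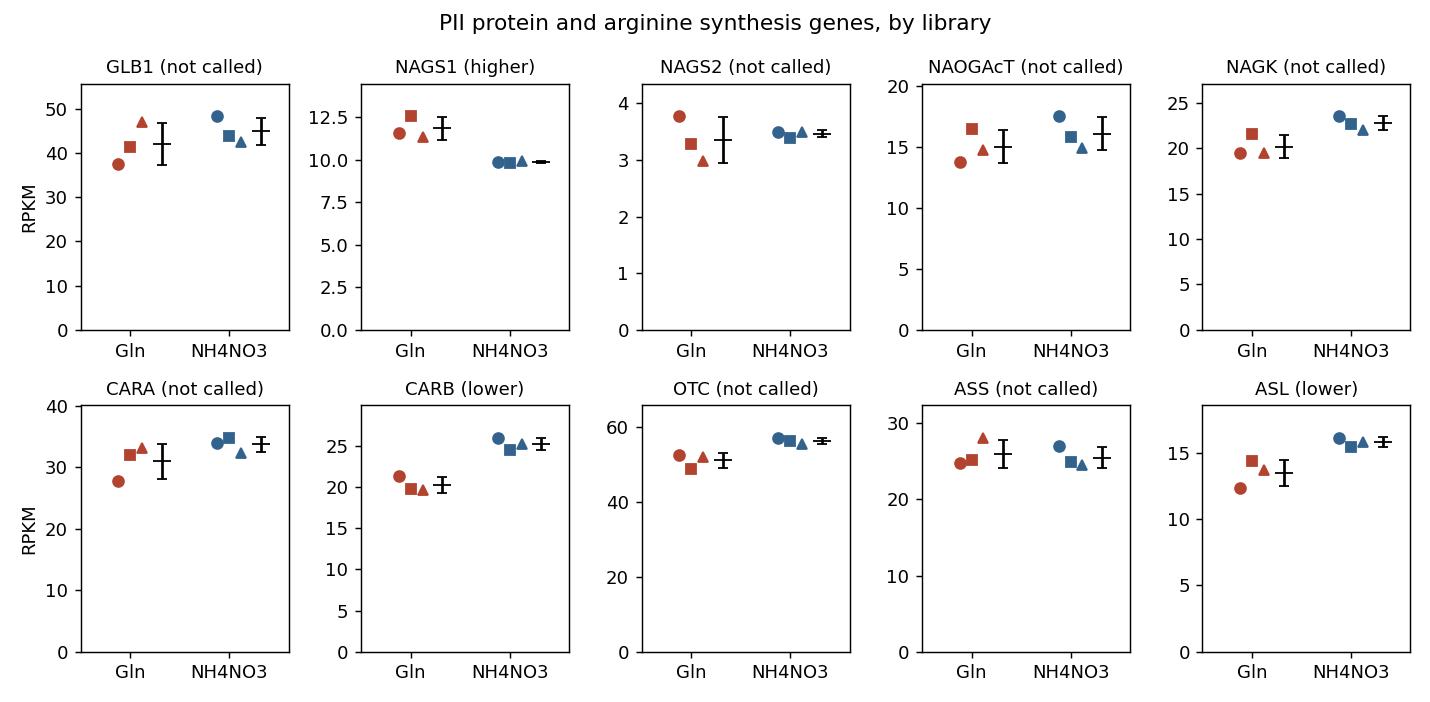
RPKM of the 10 genes in each library, on axes that start at 0, with Gln left of NH4NO3. Circles, squares and triangles are replicates 1, 2 and 3, and black bars are the mean ± SD (n = 3 per group). NAGS1 sits above and CARB and ASL sit below their NH4NO3 values without overlap, and so do NAGK and OTC, which were not called.

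GLB1 (AT4G01900, chromosome 4, 821546 to 823569, plus strand, 8 exons) encodes the plastid PII protein of 196 residues. It had 37.6, 41.3 and 47.0 RPKM in Gln and 48.4, 43.7 and 42.5 RPKM in NH4NO3. The groups overlapped, with the lowest value in Gln replicate 1 and the highest in NH4NO3 replicate 1. The means were 41.9 ± 4.73 RPKM in Gln and 44.9 ± 3.13 RPKM in NH4NO3 (SD, n = 3 each, here and below). The log2 fold change was -0.10 with a 95% interval from -0.30 to 0.10 (limma adjusted p = 0.41), and GLB1 passed the test under none of 15 alternative settings. Leaving out 1 library moved the value between -0.18, without Gln replicate 3, and -0.025, without Gln replicate 1, and it was -0.044 without NH4NO3 replicate 1. The interval bears on the size of any difference and does not show that the levels were equal. GLB1 shares 73 bases at its 5′ end with AT4G01897 on the other strand, whose mean was 25.4 RPKM. The library kit does not keep the strand, so any reads of the shared stretch cannot be assigned. The deposited length of GLB1 was 871 bases, against 1056 exonic bases in RefSeq. Whether the shared stretch was counted is therefore not known.

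Over the 6 libraries, the genes outside the set whose log2 levels followed GLB1 most closely among 13972 candidates were TUA2, an alpha-tubulin gene (Pearson r = 0.981), RABC2A, a RAB GTPase homologue (r = 0.977), and AT1G64880 (r = 0.975). These are descriptions over 6 points that share libraries, picked as the highest of many. None of the 3 was called. Within the set, the correlation with GLB1 over the 6 libraries ran from -0.60 for NAGS2 to 0.83 for CARA.

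The acetylation of glutamate is the entry step. NAGS1 (AT2G22910, chromosome 2, 9749857 to 9753103, plus strand, 9 exons) encodes an N-acetylglutamate synthase, which moves the acetyl group from acetyl-CoA to glutamate. NAGS1 had 11.6, 12.6 and 11.4 RPKM in Gln and 9.90, 9.80 and 9.95 RPKM in NH4NO3. Every Gln library was above every NH4NO3 library, and the NH4NO3 values lay close together, with a coefficient of variation of 0.772%. That spread is smaller than counting error alone gives for NAGS1 at the 586 to 667 reads of the NH4NO3 libraries. Such error is 4.13% at 586 reads, and still 3.23% at 958 reads, the highest number, in Gln replicate 2. NAGS1 rose by 19.9% in mean RPKM, a log2 fold change of 0.24 ± 0.07 (SE, limma adjusted p = 0.027). The adjusted p was 0.083 without NH4NO3 replicate 2, 0.059 without NH4NO3 replicate 1, 0.060 without NH4NO3 replicate 3 and 0.10 without Gln replicate 2, in a range from 0.012 to 0.10 over 15 alternatives.

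NAGS2 (AT4G37670, chromosome 4, 17696059 to 17698991, minus strand), the paralogue of NAGS1, had the lowest level of the 10 genes. It had 3.78, 3.29 and 2.99 RPKM in Gln and 3.50, 3.39 and 3.49 RPKM in NH4NO3. The Gln values lay on both sides of the NH4NO3 values, with a log2 fold change of -0.04 and a 95% interval from -0.27 to 0.19 (limma adjusted p = 0.78). NAGS2 rests on 203 to 247 reads per library, and 2 genes on the other strand overlap it, so its values are uncertain. These are AT4G37660, over 212 bases, with a mean of 16.1 RPKM, and the long non-coding RNA gene AT4G09555, over 56 bases, for which no value was used here. The deposited length of NAGS2 was 2052 bases, against 2200 exonic bases in RefSeq, so how much of these stretches was counted is not known.

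The ratio of NAGS1 to NAGS2 was 3.07, 3.83 and 3.80 in Gln and 2.83, 2.89 and 2.85 in NH4NO3. All 3 Gln ratios were above all 3 NH4NO3 ratios, with Gln replicate 1 close to the NH4NO3 group. A 2-sided exact permutation test of the log2 ratio gave p = 0.10, the smallest p that 3 against 3 libraries allow, and 0.20 adjusted over the 2 ratios tested. A different change of the paralogues was therefore not shown by a test that could pass the threshold.

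NAOGAcT (AT2G37500, chromosome 2, 15739783 to 15742838, minus strand, 17 exons) encodes the enzyme that recycles the acetyl group from N-acetylornithine to a new glutamate and sets ornithine free. NAOGAcT had 13.8, 16.5 and 14.7 RPKM in Gln and 17.5, 15.8 and 14.9 RPKM in NH4NO3. The groups overlapped, and the log2 fold change was -0.10 with a 95% interval from -0.29 to 0.10 (limma adjusted p = 0.42). It shares 66 bases with AT2G37480 on the other strand, whose mean was 29.5 RPKM, above that of NAOGAcT. As for GLB1, any reads of the shared stretch cannot be assigned.

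NAGK (AT3G57560, chromosome 3, 21310825 to 21312378, minus strand) encodes N-acetylglutamate kinase, the regulated step and the enzyme to which PII binds, in a single exon. NAGK had 19.5, 21.6 and 19.4 RPKM in Gln and 23.6, 22.6 and 22.0 RPKM in NH4NO3. All Gln values were below all NH4NO3 values, by a gap of 0.43 RPKM between the nearest libraries, but the gene did not pass the test, with a log2 fold change of -0.17 and a 95% interval from -0.32 to -0.01 (limma adjusted p = 0.085). After quantile normalization the adjusted p was 0.036, and over 15 alternatives it ran from there to 0.20. Thus neither PII nor its target kinase was called.

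Carbamoyl phosphate synthetase takes the amide nitrogen of glutamine, and its subunits are encoded by CARA and CARB. CARB (AT1G29900, chromosome 1, 10467956 to 10472211, plus strand, 3 exons) encodes the large subunit, which assembles carbamoyl phosphate. CARB had 21.4, 19.8 and 19.6 RPKM in Gln and 26.1, 24.6 and 25.3 RPKM in NH4NO3. The groups were well apart, and the spread was 4.66% of the mean in Gln and 2.95% in NH4NO3. CARB fell by 19.9% in mean RPKM, to 20.3 ± 0.944 RPKM in Gln against 25.3 ± 0.747 RPKM in NH4NO3, a log2 fold change of -0.31 ± 0.07 (SE, limma adjusted p = 0.0053). It was called under all 15 alternatives, with adjusted p from 0.0021 to 0.022, and at 0.015 without NH4NO3 replicate 2. On the list of all tested genes ordered by log2 fold change, CARB stood at percentile 17.1, so changes of this size were common.

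CARA (AT3G27740, chromosome 3, 10281230 to 10283935, minus strand, 8 to 10 exons) encodes the small subunit, which frees ammonia from glutamine. CARA had 27.7, 31.9 and 33.2 RPKM in Gln and 33.9, 34.8 and 32.4 RPKM in NH4NO3. Gln replicate 3 lay within the NH4NO3 range, and the log2 fold change was -0.12 with a 95% interval from -0.30 to 0.05 (limma adjusted p = 0.24). The ratio of CARA to CARB was 1.30, 1.61 and 1.69 in Gln and 1.30, 1.42 and 1.28 in NH4NO3. Gln replicate 1 lay within the NH4NO3 range, and the exact permutation test gave p = 0.30, or 0.30 adjusted over the 2 ratios. With 3 against 3 libraries this test cannot give a p under 0.10. It therefore could not decide whether the subunit genes differed in their change.

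**Figure D2:**
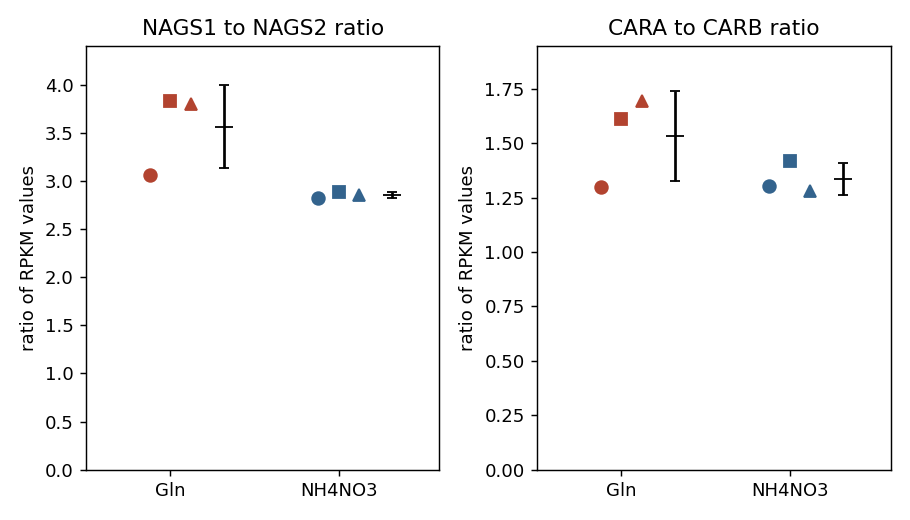
Ratio of RPKM values within each library for NAGS1 to NAGS2 (left) and CARA to CARB (right), with Gln left of NH4NO3. Circles, squares and triangles are replicates 1, 2 and 3, and bars are the mean ± SD (n = 3 per group). The NAGS1 to NAGS2 ratio averaged 3.56 in Gln and 2.86 in NH4NO3, and the CARA to CARB ratio 1.53 in Gln and 1.33 in NH4NO3, with 1 Gln library close to or within the NH4NO3 values in both.

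The last steps join ornithine to carbamoyl phosphate and bring in aspartate. OTC (AT1G75330, chromosome 1, 28266259 to 28268416, minus strand, 5 exons) encodes ornithine carbamoyltransferase, which makes citrulline, and had the highest level of the 10 genes in both groups. OTC had 52.4, 48.8 and 51.9 RPKM in Gln and 57.2, 56.2 and 55.3 RPKM in NH4NO3. All Gln values were below all NH4NO3 values, but the gene did not pass the test, with a log2 fold change of -0.14 and a 95% interval from -0.27 to -0.0016 (limma adjusted p = 0.097). The adjusted p was 0.016 after quantile normalization and ranged up to 0.27 over 15 alternatives. OTC shares 65 bases with AUL1 (AT1G75310) on the other strand, whose mean was 9.70 RPKM.

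ASS (AT4G24830, chromosome 4, 12792827 to 12796031, minus strand, 10 to 11 exons) encodes argininosuccinate synthase, which adds aspartate to citrulline. ASS had 24.8, 25.2 and 28.1 RPKM in Gln and 27.0, 24.9 and 24.5 RPKM in NH4NO3. The groups overlapped widely, with a log2 fold change of 0.03 and a 95% interval from -0.14 to 0.20 (limma adjusted p = 0.79).

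ASL (AT5G10920, chromosome 5, 3441751 to 3444267, plus strand, 5 exons) encodes argininosuccinate lyase, which splits off fumarate and leaves arginine. ASL had 12.4, 14.4 and 13.7 RPKM in Gln and 16.2, 15.5 and 15.8 RPKM in NH4NO3. All Gln values were below all NH4NO3 values, with the lowest in Gln replicate 1. ASL fell by 14.8% in mean RPKM, a log2 fold change of -0.22 ± 0.08 (SE, limma adjusted p = 0.043). The call was close to the threshold: it was lost in 9 of 15 alternatives, among them without NH4NO3 replicate 2 (adjusted p = 0.086), without NH4NO3 replicate 1 (0.10) or 3 (0.094) and without Gln replicate 1 (0.12) or 3 (0.067), in a range from 0.021 to 0.12.

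**Figure D3:**
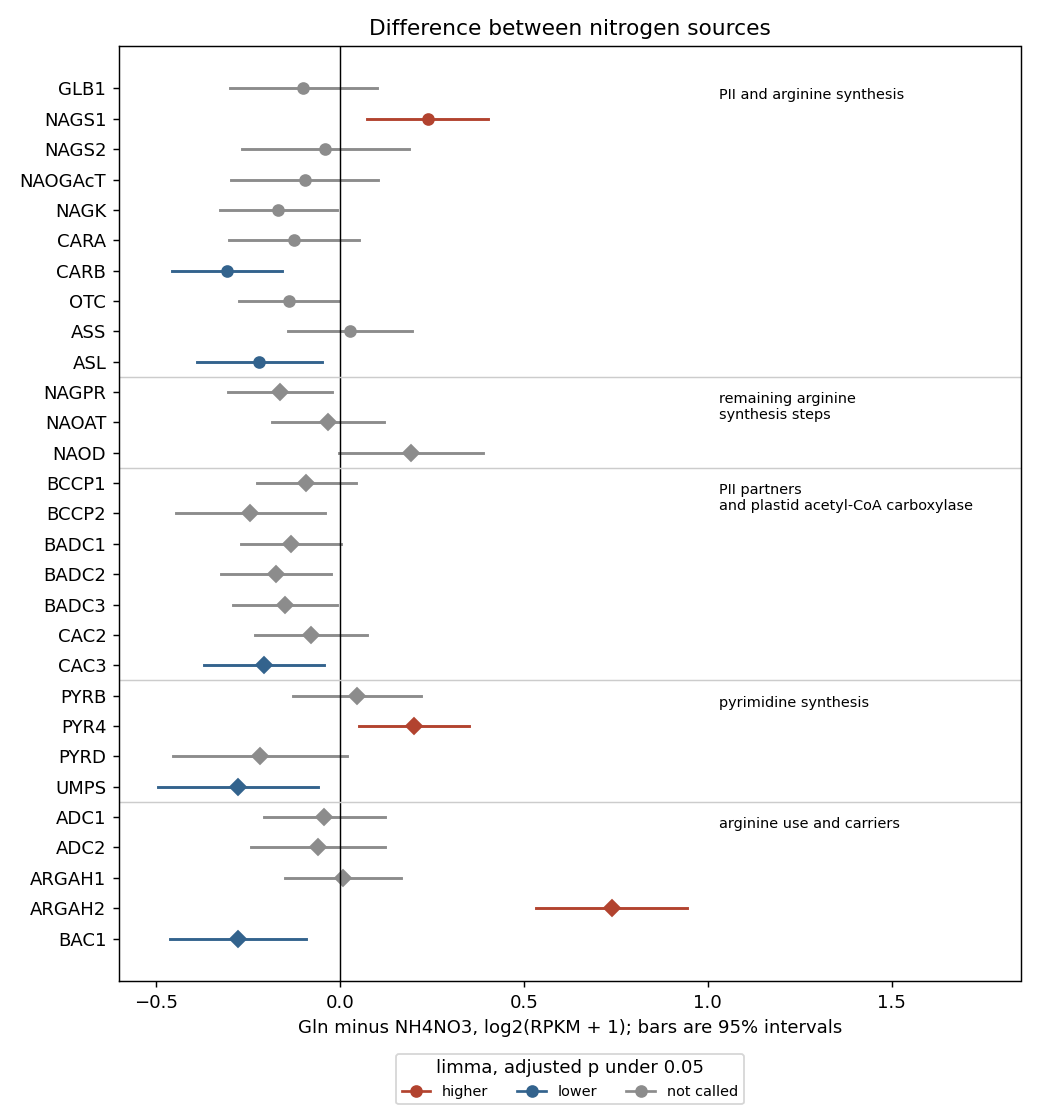
Log2 fold change (Gln minus NH4NO3, log2(RPKM + 1)) with limma 95% intervals for the 10 genes (circles) and for the tested genes of the 4 related lists (diamonds). Red marks genes called as higher, blue genes called as lower, and grey genes not called. All points but 1 lie between -0.31 and 0.24, and ARGAH2 lies apart at 0.74.

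The order of the mean levels was the same in both groups. In Gln it ran from OTC (51.1 RPKM) through GLB1 (41.9), CARA (30.9), ASS (26.0), CARB (20.3), NAGK (20.2), NAOGAcT (15.0), ASL (13.5) and NAGS1 (11.9) to NAGS2 (3.35). In NH4NO3 it ran in the same order from OTC (56.2 RPKM) to NAGS2 (3.46). The ranges of neighbours overlapped in Gln between CARA and ASS, CARB and NAGK, NAOGAcT and ASL, and ASL and NAGS1. In NH4NO3 they overlapped between ASS and CARB and between NAOGAcT and ASL. CARB was thus level with NAGK in Gln and with ASS in NH4NO3. The summed level of the 10 genes was 225, 235 and 242 RPKM in Gln and 263, 251 and 246 RPKM in NH4NO3, without overlap but with only 4.07 RPKM between the nearest libraries. Beside this, the shoot marker sum was lower and the root marker sum higher in every Gln library than in any NH4NO3 library, and their part was not tested.

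The genes of the other arginine synthesis steps differed between the groups by at most 15.3% in mean RPKM, the value of NAOD. Of 3 genes, limma called none, either as reported, where 41.2% of all genes were called, or with voom weights, where 43.2% were. NAGPR was called as lower in 3 of 15 alternatives, with no filter on low values (adjusted p = 0.030), after quantile normalization (0.027) and with array weights (0.045). NAOD was called as higher in 2, with array weights (0.047) and without Gln replicate 3 (0.028). NAGPR (AT2G19940) encodes the reductase after the kinase. NAGPR had 23.0, 24.0 and 24.7 RPKM in Gln and 26.5, 27.3 and 26.7 RPKM in NH4NO3 (limma adjusted p = 0.065). Its Gln values lay wholly below its NH4NO3 values, a separation found in 27.1% of all genes tested. NAOAT (AT1G80600), the acetylornithine aminotransferase, averaged 57.3 ± 3.87 RPKM in Gln and 58.5 ± 1.54 RPKM in NH4NO3. NAOD (AT4G17830), a putative acetylornithine deacetylase, averaged 25.7 ± 2.67 RPKM in Gln and 22.3 ± 1.33 RPKM in NH4NO3.

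Plastid acetyl-CoA carboxylase, whose biotin carrier subunits also bind PII and which starts fatty acid synthesis, had 1 of 7 tested genes lower, none higher and 6 not called. Among all genes tested, 19.8% were called as lower and 21.4% as higher. After quantile normalization 6 of the 7 were called as lower, beside 4429 of all 19284 genes. That setting moved the median log2 fold change over all genes from -0.02 to -0.053. The Gln values lay wholly below the NH4NO3 values for 6 of the 7, a separation found in 27.1% of all genes tested. The median of their log2 fold changes was -0.15, beside -0.02 over all genes tested. CAC3 (AT2G38040), the alpha subunit of the carboxyltransferase, fell to 69.7 ± 4.47 RPKM in Gln, against 80.5 ± 4.59 RPKM in NH4NO3 (limma adjusted p = 0.046, and 0.15 without NH4NO3 replicate 2). The call was also lost without Gln replicate 1 (adjusted p = 0.058), without Gln replicate 2 (0.16) and without NH4NO3 replicate 1 (0.11), and held in 8 of 15 alternatives. The carrier genes BCCP1 and BCCP2 averaged 57.8 ± 1.75 and 17.4 ± 1.54 RPKM in Gln and 61.6 ± 1.26 and 20.8 ± 1.93 RPKM in NH4NO3, and were not called. Both passed after quantile normalization (adjusted p = 0.032 for BCCP1 and 0.029 for BCCP2), and BCCP2 also with voom weights (0.044). BADC1, BADC2 and BADC3, relatives of the carriers that bind no biotin, averaged 43.7 ± 1.70, 36.5 ± 1.41 and 42.1 ± 0.327 RPKM in Gln and 48.0 ± 0.303, 41.3 ± 2.15 and 46.9 ± 2.34 RPKM in NH4NO3. They were not called either, with limma adjusted p of 0.11, 0.063 and 0.087, and passed after quantile normalization. The chloroplast gene accD, at means of 0.0698 RPKM in Gln and 0.103 RPKM in NH4NO3, was under the filter and not tested.

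Pyrimidine synthesis is the other user of carbamoyl phosphate. Of its 4 genes, PYR4 was higher, UMPS lower and 2 were not called, beside 41.2% called over all genes tested. PYR4 (AT4G22930), the dihydroorotase, rose to 26.8 ± 1.46 RPKM in Gln, against 23.1 ± 0.159 RPKM in NH4NO3 (limma adjusted p = 0.035, and 0.10 without NH4NO3 replicate 2). UMPS (AT3G54470), the UMP synthase, fell to 19.96 ± 2.70 RPKM in Gln, against 24.3 ± 1.28 RPKM in NH4NO3 (limma adjusted p = 0.045, and 0.081 without NH4NO3 replicate 2). Both calls held in 7 of 15 alternatives. That of PYR4 was also lost without Gln replicate 2 (adjusted p = 0.087) or 3 (0.10) and without NH4NO3 replicate 1 (0.066) or 3 (0.078). That of UMPS was also lost without Gln replicate 1 (adjusted p = 0.12) or 2 (0.077) and without NH4NO3 replicate 1 (0.13) or 3 (0.077). PYRB (AT3G20330), the aspartate carbamoyltransferase that takes carbamoyl phosphate directly, averaged 11.8 ± 0.660 RPKM in Gln and 11.4 ± 0.633 RPKM in NH4NO3 and was not called.

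Genes of arginine use showed a larger change in 1 gene. ARGAH2 (AT4G08870), an arginase that splits arginine into urea and ornithine, had 28.2, 23.3 and 24.9 RPKM in Gln and 13.4, 16.0 and 15.1 RPKM in NH4NO3. The groups were far apart, and ARGAH2 rose by 71.6% in mean RPKM, a log2 fold change of 0.74 ± 0.09 (SE, limma adjusted p = 0.00021). It was called in all 15 alternatives, with adjusted p from 4.4e-05 to 0.0090. The second arginase gene, ARGAH1 (AT4G08900), averaged 14.1 ± 0.529 RPKM in Gln and 14.0 ± 0.492 RPKM in NH4NO3. The 95% interval of the ARGAH2 log2 fold change ran from 0.53 to 0.94 and that of ARGAH1 from -0.15 to 0.17, and the difference between them was not tested. BAC1 (AT2G33820), a carrier of basic amino acids in the mitochondrial membrane, fell to 8.19 ± 0.392 RPKM in Gln, against 10.14 ± 0.720 RPKM in NH4NO3 (limma adjusted p = 0.023). The adjusted p was 0.059 without NH4NO3 replicate 2, 0.082 without NH4NO3 replicate 3 and 0.062 without Gln replicate 1, and 0.052 with voom weights. The call held in 11 of 15 alternatives. The arginine decarboxylase genes ADC1 and ADC2, which open polyamine synthesis, were not called, and ADC2 averaged 238 ± 11.2 RPKM in Gln and 248 ± 23.0 RPKM in NH4NO3. The carrier gene BAC2 was under the filter, at means of 0.389 RPKM in Gln and 0.402 RPKM in NH4NO3. Over the 4 lists, 2 of 19 tested genes were higher, 3 lower and 14 not called, beside 41.2% called over all genes.

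**Figure D4:**
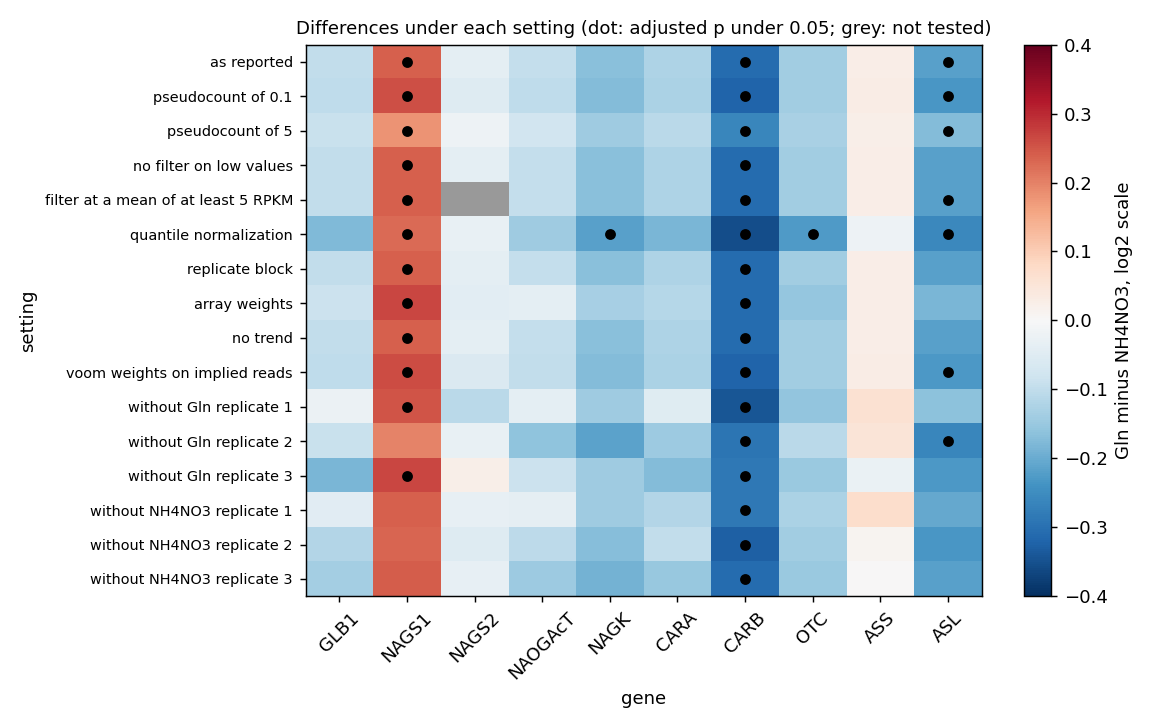
Log2 fold change (Gln minus NH4NO3, colour scale) of the 10 genes (columns) as reported and under each of 15 alternative settings (rows). Black dots mark an adjusted p under 0.05, and grey marks a gene that was not tested. CARB is lower and called in every row, NAGS1 is higher in every row and called in 11 of the 15 alternatives, and ASL is lower in every row and called in 6 of the 15.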

How the data were processed

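The authors deposited 1 table of RPKM values for 33602 genes and 6 libraries. Its name gives the scaling as TMM, the trimmed mean of M values. Per the file headers it also holds gene lengths and a multi-read ratio, a fraction that was 0 for all 10 genes. The submitters' processing notes name TAIR10 and SAMtools; aligner, counter and annotation are not given in the sources. The TruSeq RNA kit is named in the labels' protocols.

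Multiplied by length, the deposited RPKM values fell on steps of whole reads with an offset of 0.5. Up to 20 reads, 98.1% to 98.8% of the implied read numbers of a library were whole (tolerance 0.05). Because the values are RPKM, the reported test used log2(RPKM + 1) and not counts. In 1 alternative setting, limma was run with voom weights on the implied reads.

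After removing genes whose mean was below 1 RPKM, limma 3.58.1 (R 4.3.3) was run for 19284 genes on log2(RPKM + 1) with a mean-variance trend, 2-sided, with Benjamini-Hochberg adjustment over all of them and a threshold of 0.05. This scale understates the change of low genes, and the 95% intervals are not adjusted. The ratios used exact permutation tests (SciPy 1.17.1). Positions and symbols come from RefSeq TAIR10.1, which matched 32835 identifiers; the table has no coordinates. Named genes were all 10 members, every called gene of 4 related lists, with further genes of these lists added after their values were seen, and the 3 genes most correlated with GLB1. The members and lists were chosen with earlier results of these data known. Nothing in the labels says that replicates came from separate plates or days, so the spread behind the p-values may be technical.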

Additional observations from a re-analysis of the deposited data

How the results depend on the processing

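Of 149 values of the 10 genes under alternative settings, 131 kept direction and side of the threshold, 13 lost and 2 gained a call and 3 changed sign. Of 285 values of the related genes, 241 kept both, 27 lost and 11 gained a call and 6 changed sign; the cause was not tested. With 2 members lower as reported, 1 was lower with no filter on low values, with the replicate block, with array weights and with no trend, and 4 after quantile normalization. The share of all tested genes that was called also moved, from 41.2% as reported. It was 18% with no filter, 37.7% with the replicate block, 44.7% with array weights, 40.1% with no trend and 42.1% after quantile normalization. NAGK (-0.22) and OTC (-0.23) gained a call after quantile normalization. ASL lost its call with no filter, with no trend and with the replicate block (-0.22 in each) and with array weights (-0.18). ASS was at -0.020 and ARGAH1 at -0.024 after quantile normalization, against 0.028 and 0.0087 as reported. Among the related genes, with 2 higher and 3 lower as reported, quantile normalization gave 1 higher and 9 lower, 6 of them of plastid acetyl-CoA carboxylase, and the replicate block and the fit with no trend each gave 1 higher and 1 lower.

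Leaving out 1 library at a time gave 0 to 1 higher and 1 to 2 lower members, and 1 to 2 higher and 0 to 3 lower related genes. The share of all tested genes that was called fell too, from 41.2% as reported. It ran from 30.6% without NH4NO3 replicate 2 to 36.6% without Gln replicate 1. The log2 fold change then ranged from 0.20 to 0.27 for NAGS1, from -0.11 to 0.022 for NAGS2, from -0.027 to 0.070 for ASS and from -0.26 to -0.16 for ASL. It ranged from -0.18 to -0.025 for GLB1, from -0.17 to -0.048 for CARA and from -0.16 to -0.034 for NAOGAcT. The log2 difference of the CARA to CARB ratio ranged from 0.11 to 0.29. For related genes the log2 fold change ranged from -0.083 to 0.011 for NAOAT, from -0.077 to 0.016 for ADC1, from -0.12 to 0.011 for ADC2 and from -0.018 to 0.035 for ARGAH1. The block by replicate number gave 3891 higher and 3383 lower genes in all, against 4126 and 3816. Deviations of same-numbered libraries correlated at -0.07, -0.10 and -0.01 over genes, so the numbers were not taken as pairs. Counting error was 1.74% to 7.02% of a member's reads per library, and assumes that reads are independent molecules.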
